A study of Mus musculus with 9 samples.

Results

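CD201+CD48+ cells were compared with both other populations that had been sorted from one kind of mouse haematopoietic stem cell culture, to find the genes for which they were not an intermediate. Their 3 libraries, of 9 in all, were set against the equal-weight mean of the 3 CD201+CD48- and the 3 CD201- libraries. A gene was then called outside when the CD201+CD48+ level lay on the same side of each other group and the weaker of both comparisons still passed an adjusted p of 0.05. Of 11619 genes tested, 1 lay above both groups and 24 lay below both. The fold change against the nearer of the other groups is called the margin.

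All 3 groups came from wild-type C57BL/6 mice, with no transgene or mutant allele named and no age used here. CD34-CD150+KSL bone marrow cells (KSL stands for Kit+, Sca-1+ and lineage-negative) were grown in F12 medium with 0.1% polyvinyl alcohol in place of albumin, insulin-transferrin-selenium, antibiotics, stem cell factor at 10 ng/ml and thrombopoietin at 100 ng/ml. The series' design text gives 10 days of culture and its growth protocol about a week. More than 5000 cells per population were sorted as CD201+CD150+CD48-KSL, CD201+CD150+CD48+KSL or CD201-KSL, and the sample titles add CD150+CD48+ to the last of these gates where the treatment labels do not. The labels do not say that replicates came from separate cultures or animals, and the p-values therefore rest on a spread that may be technical.

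CD201, the product of Procr and a receptor for protein C, marks mouse stem cells that can repopulate a host, and CD48 appears on the surface as stem cells give way to multipotent and committed progenitors. Early progenitors can be primed towards different fates: a lymphoid and multipotent branch is known for the receptor tyrosine kinase Flt3, while a branch close to the stem cell is known for megakaryocyte and platelet genes such as the integrin subunits Itga2b and Itgb3 and von Willebrand factor. Thrombopoietin, which was in the medium, drives both stem cell maintenance and megakaryocyte growth.

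The libraries held between 3810123 and 7072885 counts, and the CD201+CD48+ libraries were the deepest group (5223812 to 7072885, against 3810123 to 5390543 in CD201+CD48- and 4709160 to 5216781 in CD201-). CD201- replicate 3 stood apart from the other replicates of its group. A chi-square per degree of freedom over genes, which is near 1 when replicates differ by counting error only, was 13.9 and 13.2 for its pairs and 1.37 to 3.62 for the other 7 pairs within a group. The values that follow include this library unless a sentence says otherwise. Of the sorted antigens, Procr and Cd48 followed the gates. Procr averaged 63.2 CPM (counts per 1000000 counts of the scaled library) in CD201+CD48-, 26.5 in CD201+CD48+ and 3.56 in CD201-. Cd48 averaged 5.86, 83.3 and 124.7 CPM in the same order. Slamf1 (CD150), Kit and Ly6a (Sca-1) also lay between the other groups in CD201+CD48+ cells, by fitted level only. In the pairwise tests Slamf1 differed from neither CD201+CD48- nor CD201- (adjusted p 0.497 and 0.238). Kit and Ly6a did not differ from CD201+CD48- (adjusted p 0.329 and 0.160).

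Itga2b had the smallest outside p of all genes and Flt3 was the only gene above both groups. Plek is a platelet signalling gene called below both. Promoter sequences are shown for these 3 outside genes. Each is the 250 bases before the RefSeq start on GRCm38.p6, read 5′ to 3′ on the gene's own strand, which is the minus strand for all 3. Capitals mark the ETS words AGGAAG or CGGAAG and the GATA words AGATAA or TGATAA, searched on both strands; AGGAAG and AGATAA can share the letters AG at an end. The windows are chr11:102469884-102470133 for Itga2b, chr5:147400490-147400739 for Flt3 and chr11:17008719-17008968 for Plek.
Itga2b: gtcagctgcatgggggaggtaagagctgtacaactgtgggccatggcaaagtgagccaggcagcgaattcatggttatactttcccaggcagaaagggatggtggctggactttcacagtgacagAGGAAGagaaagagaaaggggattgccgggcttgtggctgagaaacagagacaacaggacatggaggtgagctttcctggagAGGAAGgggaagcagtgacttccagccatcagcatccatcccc
Flt3: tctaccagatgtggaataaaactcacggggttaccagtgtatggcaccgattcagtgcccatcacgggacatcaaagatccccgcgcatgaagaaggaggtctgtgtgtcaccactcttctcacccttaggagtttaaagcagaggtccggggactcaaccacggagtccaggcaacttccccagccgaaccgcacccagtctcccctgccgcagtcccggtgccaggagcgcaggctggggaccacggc
Plek: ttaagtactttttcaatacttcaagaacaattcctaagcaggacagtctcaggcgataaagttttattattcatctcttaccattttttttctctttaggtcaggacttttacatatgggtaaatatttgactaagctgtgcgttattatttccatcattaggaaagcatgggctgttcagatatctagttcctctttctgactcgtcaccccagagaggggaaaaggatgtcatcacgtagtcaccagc
The Itga2b window held AGGAAG at 125 and 43 bases before the start, and the Flt3 and Plek windows held none of these words. The windows of P2rx1 and Gata1 were searched as well but are not printed. P2rx1 held AGATAA on the opposite strand, 242 bases before the start, and Gata1 held AGGAAG at 125. An ETS word occurred in 10527 of 27025 mouse promoter windows of this length (39.0%) and in those of 6 of the 18 genes below both groups that had an entry. A GATA word occurred in 4591 windows (17.0%) and in those of 2 of the 18, Mrvi1 and P2rx1. These matches describe the letters only.

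Most genes placed CD201+CD48+ cells between the other populations. The fitted level was between for 7383 of the 11619 genes (63.5%), highest in CD201+CD48+ for 2154 (18.5%) and lowest for 2082 (17.9%). Among the 5585 genes that differed between CD201+CD48- and CD201- cells, 4936 (88.4%) had CD201+CD48+ between. Picking genes for which those groups lie apart itself favours a place between, and the places were not tested. The contrast against the mean of both groups called 266 genes higher (2.29% of those tested) and 269 lower (2.32%). Scaled by library size alone those calls were 449 higher and 216 lower, and the median of all genes against CD201- cells shifted from -0.0022 to 0.13 on the log2 scale. Of these 535 genes, 217 were between the other groups, 189 of them nearer to CD201+CD48- and 28 nearer to CD201-. A further 293 were highest or lowest by their fitted level without passing the outside test, and 25 passed it. Cd48 shows how a gene can be called on the mean without being outside: its log2 contrast was 1.62 (adjusted p 2.31e-08), yet it was higher still in CD201- cells.

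The genes outside both groups were few and nearly all lower. Flt3 was the only gene above (0.00861% of the genes tested), and the 24 below made up 0.207%. In all 25 the CD201+CD48+ replicates did not overlap any of the 6 other libraries. Over all genes, such a gap was seen for 200 genes above (1.72%) and 287 below (2.47%). The margin reached 1.5-fold in 20 of the 25 and 2-fold in 12. The other 2 groups themselves differed in 16 of the 25 genes. Among the 24 below, CD201+CD48- was the higher of the other groups in 15 and CD201- in 9. At an unadjusted larger p under 0.05, 100 genes lay above and 192 below. Without CD201- replicate 3 the outside calls were 22 above and 80 below and held all 25 genes, and without CD201+CD48+ replicate 1 or replicate 2 the genes below were 15 each.

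**Figure D1:**
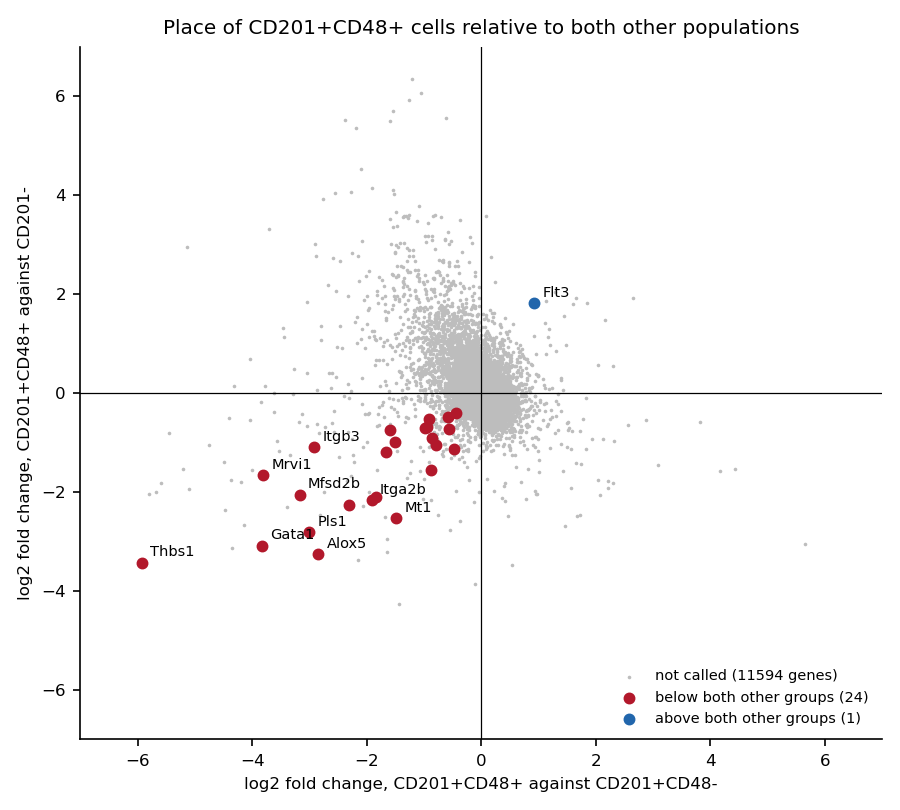
Each point is 1 of 11619 genes, with the log2 fold change of CD201+CD48+ against CD201+CD48- cells on the x axis and against CD201- cells on the y axis; coloured points are the 25 genes called outside both groups. The lower left quadrant holds the 24 genes below both, with Thbs1 farthest out, and the upper right holds Flt3 alone among the called genes; both axes share the CD201+CD48+ libraries.

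Flt3, the receptor for FLT3 ligand and a marker of multipotent progenitors that have left the stem cell state, was highest in CD201+CD48+ cells (5:147330741-147400489, GRCm38.p6). It had 40.8, 34.6 and 34.0 CPM in the CD201+CD48+ replicates, 19.9, 17.7 and 19.5 in CD201+CD48- and 9.30, 11.4 and 10.3 in CD201-. Every CD201+CD48+ library was higher than every other library. The log2 fold change was 0.93 ± 0.12 (SE) against CD201+CD48- and 1.81 ± 0.14 against CD201- (adjusted outside p 0.00135). Flt3 passed in all 17 alternative settings, with a margin from 0.84 to 0.98. Flt3 overlaps another annotated gene, and no source used here states whether strand was used in counting.

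A list of lymphoid and multipotent genes was read in the same way. Of 37 tested members, 1 (Flt3) was outside, 7 were higher in the contrast (2.29% over all genes) and 2 lower (2.32%), and 25 were between, where 63.5% of all genes were. Without CD201- replicate 3, 2 members (Flt3 and Ikzf2) were above both groups, 10 were higher and 3 lower. Of all 11794 genes in that setting, 22 were above, 901 higher and 745 lower. The list's median log2 contrast was 0.12, beside 0.0085 over all genes. Its median log2 fold change was -0.11 against CD201+CD48- and 0.32 against CD201-, beside 0.0054 and -0.0022 over all genes. By fitted level, 4 members were lowest (10.8%) and 8 highest (21.6%) in CD201+CD48+ cells, beside 17.9% and 18.5% of all genes. The members given next, Cd27, Cd53 and Ikzf2, were all on the higher side of the contrast, and neither member called lower is among them. Cd27, a costimulatory receptor, averaged 18.1 ± 3.11 (SD, n = 3), 19.6 ± 3.21 and 8.74 ± 1.79 CPM in CD201+CD48-, CD201+CD48+ and CD201- cells. Cd53, a tetraspanin, averaged 80.0 ± 4.21, 71.3 ± 1.91 and 27.1 ± 6.96 CPM. Both were called higher in the contrast (adjusted p 0.0219 and 0.00258), and for both the CD201+CD48- cells were close to the CD201+CD48+ level. Ikzf2, a transcription factor of the Ikaros family, was highest in CD201+CD48+ cells, at 60.5 ± 3.82 CPM against 48.1 ± 4.43 and 44.5 ± 3.61, but of the 17 alternative settings it passed the outside test only without CD201- replicate 3 (adjusted p 0.541 with all 9 libraries).

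**Figure D2:**
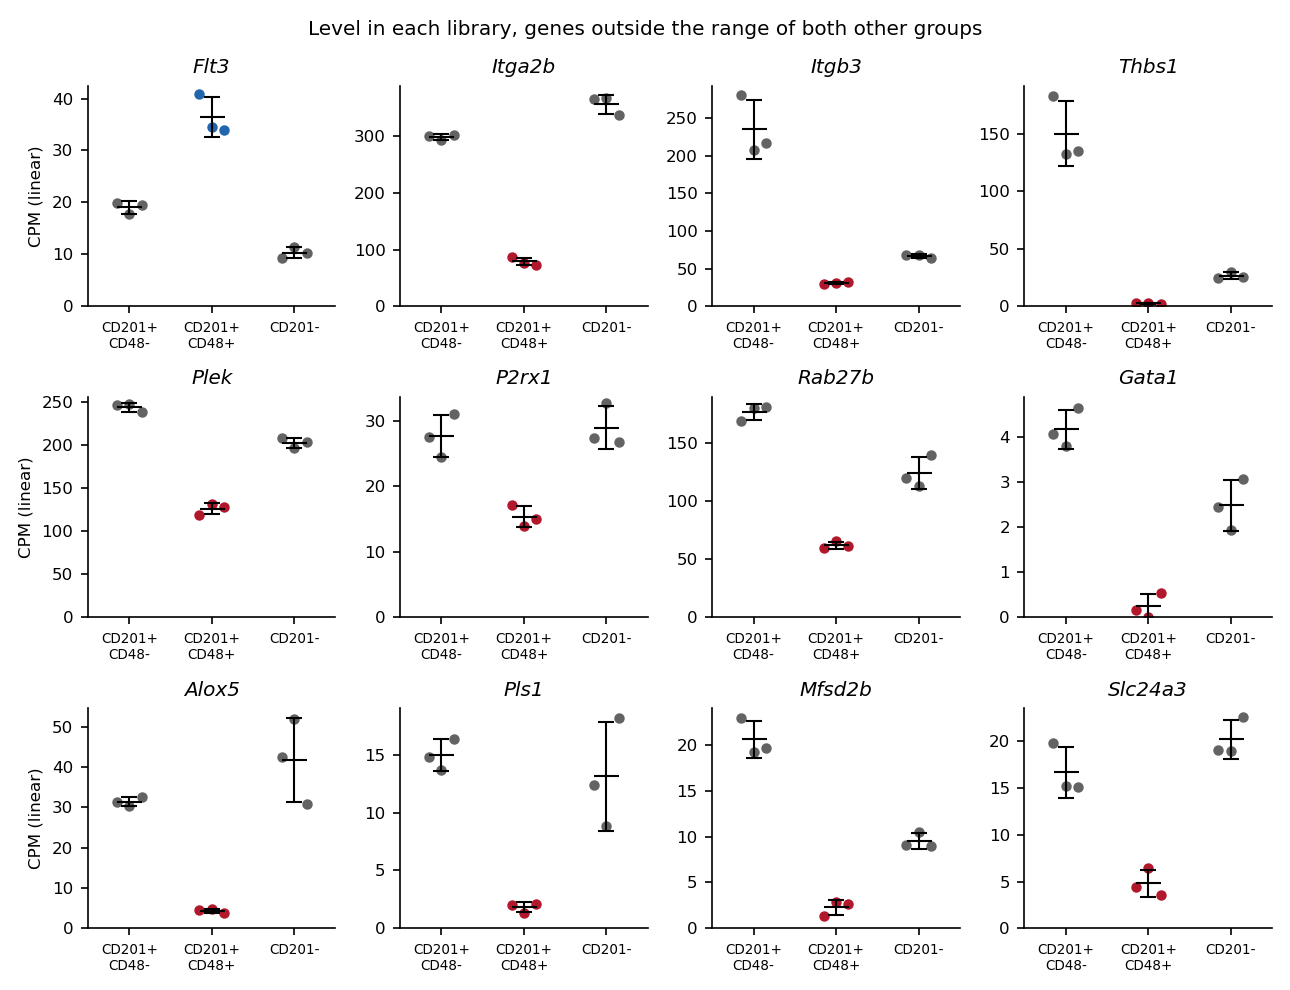
CPM on a linear axis from 0 in each of the 9 libraries for 12 genes called outside both groups; points are libraries, and bars give the group mean and SD (n = 3). In every panel the coloured CD201+CD48+ points do not overlap the grey points of the other groups, lying above them for Flt3 and below them for the other genes.

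Genes of platelet adhesion and granules were among those below both groups. Thbs1, which encodes the adhesive glycoprotein thrombospondin 1 of platelet granules, had the largest margin of all genes below both groups (2:118111876-118127133). It had 2.56, 3.02 and 1.93 CPM in CD201+CD48+, 182, 132 and 135 in CD201+CD48- and 24.6, 30.1 and 25.2 in CD201-. The CD201+CD48+ level was 60.8-fold lower than in CD201+CD48- and 10.8-fold lower than in CD201- (log2 -5.93 ± 0.19 and -3.43 ± 0.23, adjusted outside p 1.3e-06). CD201- cells held an intermediate level and CD201+CD48+ cells the lowest. A bulk library cannot tell fewer cells that express a gene from less RNA per cell.

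Itga2b and Itgb3 encode the subunits of the platelet fibrinogen receptor. Itga2b (11:102453297-102469883) had 86.6, 77.1 and 73.4 CPM in CD201+CD48+, 300.1, 292 and 302 in CD201+CD48- and 365, 367 and 337 in CD201-. It was 3.78-fold and 4.51-fold lower than in CD201+CD48- and CD201- cells (log2 -1.92 ± 0.08 and -2.17 ± 0.08, adjusted outside p 2.58e-09). Itga2b was high in all 6 other libraries, 292 CPM or more, and no CD201+CD48+ library exceeded 86.6 CPM. Itgb3 (11:104608000-104670476) had 29.7, 31.6 and 32.3 CPM in CD201+CD48+, 280.2, 208 and 217 in CD201+CD48- and 67.7, 68.6 and 63.6 in CD201-. Its log2 fold change was -2.91 ± 0.11 and -1.09 ± 0.12 (adjusted outside p 1.70e-04), with CD201- cells the nearer group. Rab27b, a small GTPase of granule secretion on chromosome 18, had 59.3, 65.2 and 61.6 CPM, below 169, 179.9 and 181 in CD201+CD48- and 119.7, 113 and 139.6 in CD201- (adjusted outside p 2.42e-05).

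Plek, P2rx1 and Gata1, genes of platelet signalling and regulation, were also below both groups. Plek, which encodes the platelet protein kinase C substrate pleckstrin (11:16971206-17008718), had 119, 131 and 128 CPM in CD201+CD48+, 247, 247 and 238 in CD201+CD48- and 208, 196 and 203 in CD201- (log2 -0.95 ± 0.07 and -0.68 ± 0.07, adjusted outside p 1.66e-04). P2rx1, the ATP-gated channel of platelets (11:72999056-73015200), had 14.0 to 17.1 CPM in CD201+CD48+, 27.5, 24.5 and 31.0 in CD201+CD48- and 27.4, 32.7 and 26.7 in CD201- (log2 -0.85 ± 0.14 and -0.91 ± 0.14, adjusted outside p 0.00999). Gata1, the transcription factor of megakaryocyte and erythroid cells (X:7959260-7976663), was counted 1, 0 and 4 times in the CD201+CD48+ libraries, 23, 15 and 21 times in CD201+CD48- and 11, 9 and 14 times in CD201- (adjusted outside p 0.0411). Gata1 lost its call in 10 of the 17 alternative settings and P2rx1 in 5.

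Across 57 tested genes of a megakaryocyte and platelet list, chosen with earlier results of these data known, 7 were outside below and none above. Over all genes these shares were 0.207% and 0.00861%. Of the 57, 38 (66.7%) had their lowest level in CD201+CD48+ cells, beside 17.9% over all genes. In the contrast, 32 were called lower and 1 higher, beside 2.32% and 2.29% of all genes. The median log2 fold change was -0.85 against CD201+CD48- and -0.31 against CD201-. Without CD201- replicate 3, 12 of the list's 58 tested genes were below, beside 80 of all 11794 genes. By role, 12 of 14 adhesion receptors were called lower, and so were 8 of 15 granule and coagulation genes, 9 of 17 signalling and cytoskeleton genes and 3 of 11 transcription factors. Several members were lower in CD201+CD48+ cells without passing the outside test. Gp6, the collagen receptor, averaged 13.9 ± 1.35, 0.382 ± 0.264 and 1.53 ± 0.421 CPM in CD201+CD48-, CD201+CD48+ and CD201- cells (adjusted outside p 0.361). Pf4, platelet factor 4, averaged 237 ± 14.5, 47.0 ± 9.19 and 81.5 ± 18.2 CPM (adjusted outside p 0.0877). Pf4 did pass below both groups with DESeq2, after thinning and without CD201- replicate 3. Vwf, von Willebrand factor, was between, at 715 ± 44.1, 125 ± 9.63 and 65.5 ± 8.63 CPM.

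**Figure D3:**
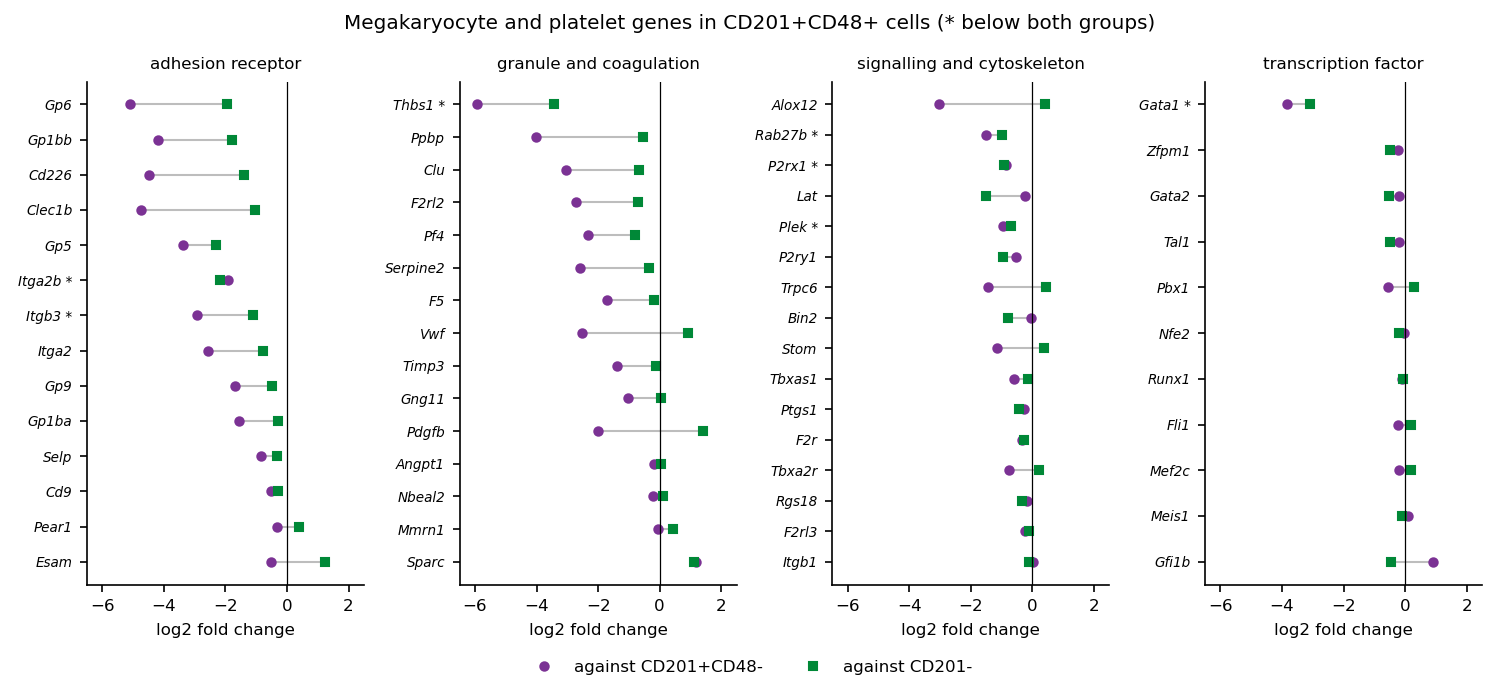
Log2 fold change of CD201+CD48+ cells against CD201+CD48- (circles) and against CD201- cells (squares) for 56 of the 57 tested members of the megakaryocyte and platelet list, grouped by role. Values to the left of 0 are lower in CD201+CD48+ cells; 12 of the 14 adhesion receptors lie left of 0 in both comparisons, and asterisks mark the 7 genes called below both groups.

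The remaining genes below both groups came from several functions. Alox5, the 5-lipoxygenase that starts leukotriene synthesis (6:116410071-116461178), had 4.61, 4.72 and 3.85 CPM in CD201+CD48+, 31.4, 30.3 and 32.5 in CD201+CD48- and 42.5, 51.9 and 30.9 in CD201- (log2 -2.85 ± 0.20 and -3.26 ± 0.20, adjusted outside p 1.74e-06). Alox5 also belongs to a mast cell and basophil list, of which 7 members were tested and 4 were called lower (2.32% of all genes). Gzmb joined Alox5 below both groups when CD201- replicate 3 was left out, and also with no filter, with DESeq2 and with separate pairwise fits. The summed CPM of that list, Alox5 included, was 62.4 to 64.5 in CD201+CD48+, 124.1 to 135.1 in CD201+CD48- and 156.3 to 179 in CD201-. Alox5 itself averaged 4.4, 31.4 and 41.75 CPM in the same order. Fcer1a, Mcpt4, Tpsb2 and Cma1 were at 0 in CD201+CD48+, and 3 of these 4 were at 0 in every library. The part of that list in the result was not tested. Pls1, the actin-bundling protein plastin 1 (9:95752642-95845306), had 2.05, 1.32 and 2.06 CPM in CD201+CD48+, 14.8, 13.6 and 16.4 in CD201+CD48- and 12.4, 8.82 and 18.2 in CD201- (log2 -3.01 ± 0.29 and -2.82 ± 0.30, adjusted outside p 1.70e-04). Mfsd2b, a sphingosine-1-phosphate exporter of red cells and platelets (12:4862438-4874359), had 1.37, 2.83 and 2.61 CPM in CD201+CD48+, 23.0, 19.2 and 19.7 in CD201+CD48- and 9.07, 10.5 and 8.99 in CD201- (log2 -3.17 ± 0.22 and -2.05 ± 0.25, adjusted outside p 5.69e-04). These 3 genes kept their call in all 17 alternative settings.

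Slc24a3, a sodium, potassium and calcium exchanger, was at 4.81 CPM in CD201+CD48+ against 16.7 and 20.2 in CD201+CD48- and CD201-. Mrvi1, a protein of cyclic GMP signalling in smooth muscle and platelets, was at 3.79 CPM against 53.2 in CD201+CD48- and 13.7, 10.8 and 11.6 in the CD201- replicates. Mt1, a metallothionein, was at 4.81 CPM against 13.3 and 27.8, and its CD201- replicates were 31.6, 33.6 and 18.2. Samd14 was at 8.23 CPM against 26.1 and 18.8, and Lilrb4a, an inhibitory immune receptor, at 33.7 against 61.9 and 99.5. Each of these 5 passed the outside test, and Mt1 lost its call in 8 of the 17 settings. Slc2a3, Vcl and Cdkn1a had smaller margins and lost their call in 7, 6 and 11 of the 17 settings. Slc2a3, a glucose transporter, was at 164 CPM against 242 and 269.6, Vcl, the focal adhesion protein vinculin, at 129 against 193 and 181, and Cdkn1a, the cell cycle inhibitor p21, at 14.4 against 24.7 and 29.8. Cdkn1a was the last gene inside the threshold (adjusted outside p 0.0499), and Itga6, at 258 CPM against 333 and 348, and G2e3, at 138 against 106 and 105, were the first outside it (both 0.0525). Prune2, Prkca, Atp6v0a1, Prkar2b, Prkd2 and Gm10419 were the other 6 genes below both and are named after their values were seen; their margins ran from a log2 of -0.40 for Prkd2 to -2.26 for Gm10419. Of the 25 genes, 10 overlap another annotated gene: Flt3, Gata1, Alox5, Slc24a3, Mrvi1, Rab27b, Prkca, Slc2a3, Atp6v0a1 and Vcl.

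S phase, ribosome biogenesis and interferon genes put CD201+CD48+ cells between the other groups in nearly every case, beside 63.5% of all genes. All 55 tested S phase genes and 56 of 58 ribosome biogenesis genes were between, as were 49 of 51 interferon response genes. Of 56 G2 and M phase genes, 14 were highest in CD201+CD48+ cells (25.0%, beside 18.5% over all genes), none passed the outside test, and 3 (Ccnb1, Kif23 and Ect2) were called higher in the contrast (2.29% of all genes). Without CD201- replicate 3, 29 of them were called higher and 3 passed the outside test above, beside 901 and 22 of all 11794 genes. Scaled by library size alone, 29 of the 56 were highest and the list's median log2 fold change against CD201- cells was 0.0051 in place of -0.13. In that scaling 2812 of all 11619 genes were highest, and their median against CD201- cells was 0.13 in place of -0.0022. Ect2, a cytokinesis factor, averaged 88.3 ± 1.04, 112 ± 6.59 and 67.6 ± 3.83 CPM in CD201+CD48-, CD201+CD48+ and CD201- (adjusted outside p 0.105). Ect2 did pass above both groups with no filter, with separate pairwise fits and without CD201- replicate 3. Ccnb1, Kif23, Hk2, Itga6 and Tgm2 were named after their values were seen. Of 43 actin cytoskeleton and focal adhesion genes, 24 (55.8%) were lowest in CD201+CD48+ cells, beside 17.9% of all genes. Vcl passed the outside test below (0.207% of all genes). Without CD201- replicate 3, 9 of the 43 passed below, beside 80 of all 11794 genes. Of 25 glycolysis genes, 9 were lowest (17.9% of all genes were), 9 were called lower in the contrast (2.32%) and Slc2a3 was below both (0.207%). With CD201- replicate 3 left out, 15 were called lower, and Hk2 and Slc2a3 were below both, beside 745 and 80 of all 11794 genes. Of 47 stem cell genes, 34 were between, beside 63.5% of all genes, 7 were called higher (2.29%) and 8 lower (2.32%). Leaving out CD201- replicate 3 gave 13 higher and 12 lower, beside 901 and 745 of all 11794 genes. Itga6 and Tgm2 were then below both, beside 80 of all genes. Itga6 was also below both with no filter, with DESeq2 and with limma-voom.

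Markers of other cell types were read for all members. Of 23 mature neutrophil and macrophage genes, 14 were counted in CD201+CD48+ cells, led by Cd68, Ltf, Vcan and Lcn2, and 9 had no count there, 6 of them in no library. S100a8, S100a9, Ly6g and Marco were among the 9, and the summed level was 19.1 to 20.8 CPM, near the 14.4 to 19.3 of CD201- and below the 92.8 to 95.8 of CD201+CD48-. Of 26 erythroid genes, 3 (Hba-a1, Alas2 and Car1) were at 0 in CD201+CD48+, 2 of them in every library, and the sum was 689.6 to 743.9 CPM against 752.9 to 796 and 634.8 to 675. Of 21 endothelial and stromal genes, Lum and Dcn were at 0 in every library, and the sum was 355.4 to 365.4 CPM against 424.5 to 454.5 and 347.8 to 382.5. The 17 dendritic cell and MHC class II genes all had counts, and their sum was 84.3 to 101.9 CPM against 178.9 to 193.3 and 42.0 to 56.8. In CD201+CD48+ cells the erythroid sum was led by Car2, Hbb-bt, Tfrc and Hemgn. The endothelial and stromal sum was led by Tie1, Pecam1, Egfl7 and Tek, and the dendritic cell sum by Cd74, Bst2, H2-DMa and Zbtb46. In none of these 4 sums did all CD201+CD48+ libraries lie below all other libraries.

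**Figure D4:**
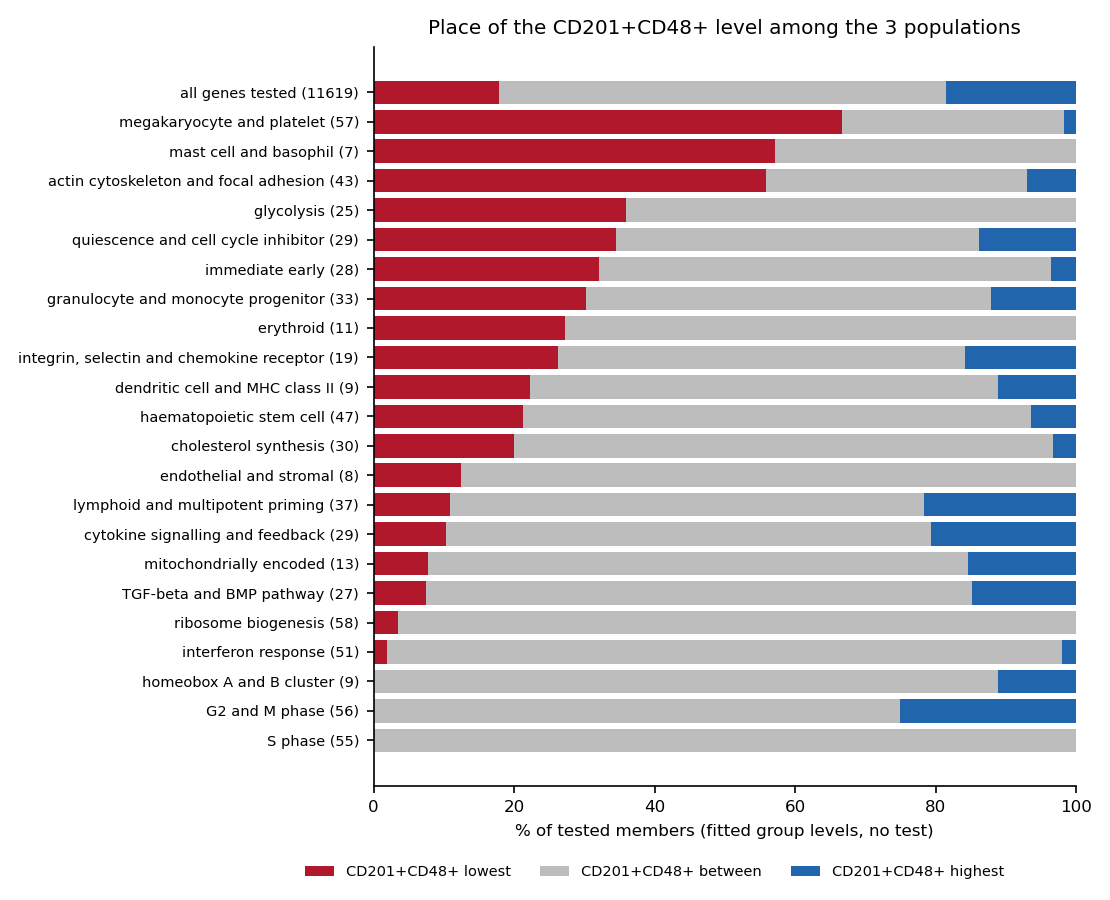
Share of the tested genes of each list, in percent, whose fitted level was lowest, between or highest in CD201+CD48+ cells, with all 11619 genes for reference. The megakaryocyte and platelet list has the longest lowest segment, at 66.7%, and the S phase list lies wholly between.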

How the data were processed

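RNA from the sorted cells was copied with a SMARTer kit and sequenced as 36-base read pairs on an Illumina NextSeq, per the labels' protocols. The deposited table holds whole-number counts per gene for 49585 genes. The submitters' processing notes name the build mm10 and DESeq2 without saying what for; no source used here gives the aligner, the counter, the annotation or whether strand was used. A second, normalized table was not used, and 3 columns that matched no sample were left out.

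Counts were tested as deposited with edgeR 4.0.16 (R 4.3.3; filterByExpr with a minimum count of 10, TMM scaling, robust quasi-likelihood F test, Benjamini-Hochberg adjustment over all 11619 genes), fitted on all 9 libraries with group as the only term. The biological coefficient of variation was 8.64%. The outside test took the larger of both two-sided p-values where both differences had the same sign, and 1 otherwise. CPM values use TMM-scaled library sizes. The procedure was tested on simulated data. Total counts of 3810123 to 7072885 per library limit precision for genes with few counts.

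The comparison, the gene lists and the named genes were chosen with earlier results of these data known. Named were the sorted antigens, the 12 outside genes per direction with the largest margin and at least 10 CPM, up to 4 outside members per list, and members of the megakaryocyte, lymphoid, granulocyte and monocyte, and mast cell lists. Positions and promoters come from RefSeq (GRCm38.p6), which matched 11060 of the genes (95.2%). Alternatives were other scaling, no filter, DESeq2 1.42.0, limma-voom (limma 3.58.1), separate pairwise fits, thinning, a replicate block and leaving out each library. The values of 1 member of the megakaryocyte and platelet list are not reported here.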

Additional observations from a re-analysis of the deposited data

How the results depend on the processing

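The log2 margins of the 25 outside genes kept their direction in every alternative. So did the log2 contrasts of the genes with the largest contrasts among those not outside. The direction of the other named genes was not followed. Medians of gene lists that lay near 0 changed sign in places. With library size alone the median log2 fold change of the G2 and M phase genes against CD201- cells turned from -0.13 to 0.0051. The median of the erythroid contrast turned from -0.032 to 0.017. Over all genes the median against CD201- cells moved from -0.0022 to 0.13, and that of the contrast from 0.0085 to 0.058. The contrast called 266 genes higher; this became 449 (with 216 lower) with library size alone, 409 with no filter and 105 to 901 when single libraries were left out. The 269 lower genes ranged from 125 to 745 when single libraries were left out. The genes above both groups, 1 in all, became 7 with no filter, 3 with DESeq2, 3 with separate pairwise fits and 1 to 22 when single libraries were left out. The 24 genes below became 52 with no filter, 45 with DESeq2 and 15 to 80 when single libraries were left out. The megakaryocyte and platelet genes below, 7 in all, ranged from 5 to 12. The highest of each range came without CD201- replicate 3. Without CD201+CD48- replicate 2 or 3 the contrast called 167 and 166 genes higher, and without CD201+CD48+ replicate 1, 2 or 3 it called 149, 136 and 105 higher and 175, 133 and 125 lower; the cause of these shifts was not tested. Of the 25 genes, 15 kept their call in all 17 alternatives, among them Flt3, Thbs1, Alox5, Itga2b, Itgb3, Rab27b and Plek; Atp6v0a1 and Prkd2 lost it in 12 each, Cdkn1a in 11 and Gata1 in 10. Thinned to 3810123 counts per library, 23 genes passed, 21 of them shared. The replicate block left 18 genes outside, 17 of them shared. Same-numbered libraries correlated at -0.113 to 0.0447 in their deviations from group means, with none of the 9 pairs over 0.1. Libraries of other numbers correlated at -0.0722 to 0.1. Deviations from means of 3 libraries cannot decide whether same-numbered libraries share a culture or animal. Genes with few counts, such as Gata1, are limited by depth.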
